A study of Xenopus tropicalis with 2 samples.

Results

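msgn1, dmrt2, pcdh8.2, nkx3-2 and foxf1 are 5 regulators of paraxial mesoderm, sclerotome and neighbouring mesoderm, and they were followed through single cell RNA-Seq of sorted tail cells of Xenopus tropicalis tadpoles. They were found by name and made up 5 of the 14374 gene identifiers in the deposited count matrices. The 5 genes were selected on how their levels differed between clusters and libraries in these same cells. Their levels, and the contrast between libraries, are therefore given as a description with no test.

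The animals came from a cross of wild-type frogs with a transgenic line that carried pax6:GFP, cryga:RFP and actc1:RFP, so GFP was driven by a promoter of the neural gene pax6. GFP+ cells of pooled tails were sorted and captured with the 10x Genomics 3′ version 2 chemistry, which counts transcripts by unique molecular identifiers (UMIs). The paper reports that the sorted cells were enriched for neural cells, with other lineages present too. The clusters that lead below have mesodermal names and lie outside that neural target. Their shares are therefore shares of sorted cells, not of the tail. How such cells passed the sort was not tested. The uninjured library held tail tips of intact tadpoles, labelled NF stage 41 and 3 days post fertilization. The library of 24 h post amputation (24hpa) held regenerated tail tissue of tadpoles that lost the posterior part of the tail at NF stage 41, which is 3 days post fertilization. Each group was 1 library, so amputation, age, tissue taken and library cannot be told apart, and no difference between the groups has a replicate check.

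In a vertebrate tail bud, presomitic mesoderm is laid down at the posterior end and is cut into somites by oscillating Notch, Wnt and FGF signalling. Each somite then separates into sclerotome, which forms cartilage and tendon of the axial skeleton, and into dermomyotome and myotome, which form muscle and dermis. msgn1 encodes a basic helix-loop-helix factor of presomitic mesoderm, known in mouse and frog to commit cells to a paraxial fate. pcdh8.2 is a gene of the paraxial protocadherin family, adhesion proteins that act at forming somite borders in frog embryos. dmrt2 encodes a doublesex-related factor of the somite and dermomyotome, which in mouse acts upstream of myf5. nkx3-2 encodes a homeodomain factor of sclerotome needed for the axial skeleton in mouse. foxf1 encodes a forkhead factor of lateral and visceral mesoderm that responds to Hedgehog signalling in mouse.

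The table of all cells held 2617 uninjured cells with a median of 8289 UMIs and 1090 cells at 24hpa with a median of 10374.5 UMIs, in 18 clusters named by the authors. In all, 1 cell barcode was shared by both libraries. Levels below are in CPM, the UMIs of a gene summed over the cells of a cluster and library and scaled to a common total of UMIs, with exact 95% Poisson intervals. Shares of cells carry exact Clopper-Pearson 95% intervals. All intervals cover counting error only, so variation among animals or repeat libraries is not in them. Those of levels and ratios treat UMIs as independent, so variation between cells is not in them either.

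Each of the 5 genes was concentrated in 1 cluster. The cluster named Satellite Cells/Differentiating Myotome (shortened here to Satellite) held 80.4% of the 102 UMIs of msgn1, 83.9% of the 62 UMIs of pcdh8.2 and 80.4% of the 209 UMIs of dmrt2. The cluster named Myotome held 94.3% of the 194 UMIs of nkx3-2 and 93.6% of the 78 UMIs of foxf1. Over all genes with at least 50 UMIs, 4.34% had at least 75% of their UMIs in 1 cluster, a share that is printed for scale only because the members were picked for such a pattern. Over both libraries the interval of the leading cluster lay above that of the next cluster for 4 of the genes. For pcdh8.2 it overlapped that of Bipotent Progenitor, with 13.4 CPM (10.0 to 17.6) and 3.86 CPM (0.796 to 11.3), although not within the uninjured library. For nkx3-2 and msgn1 the next cluster was Bipotent Progenitor, at 7.72 and 6.44 CPM over both libraries, against 46.9 and 21.1 CPM in the leading cluster.

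**Figure D1:**
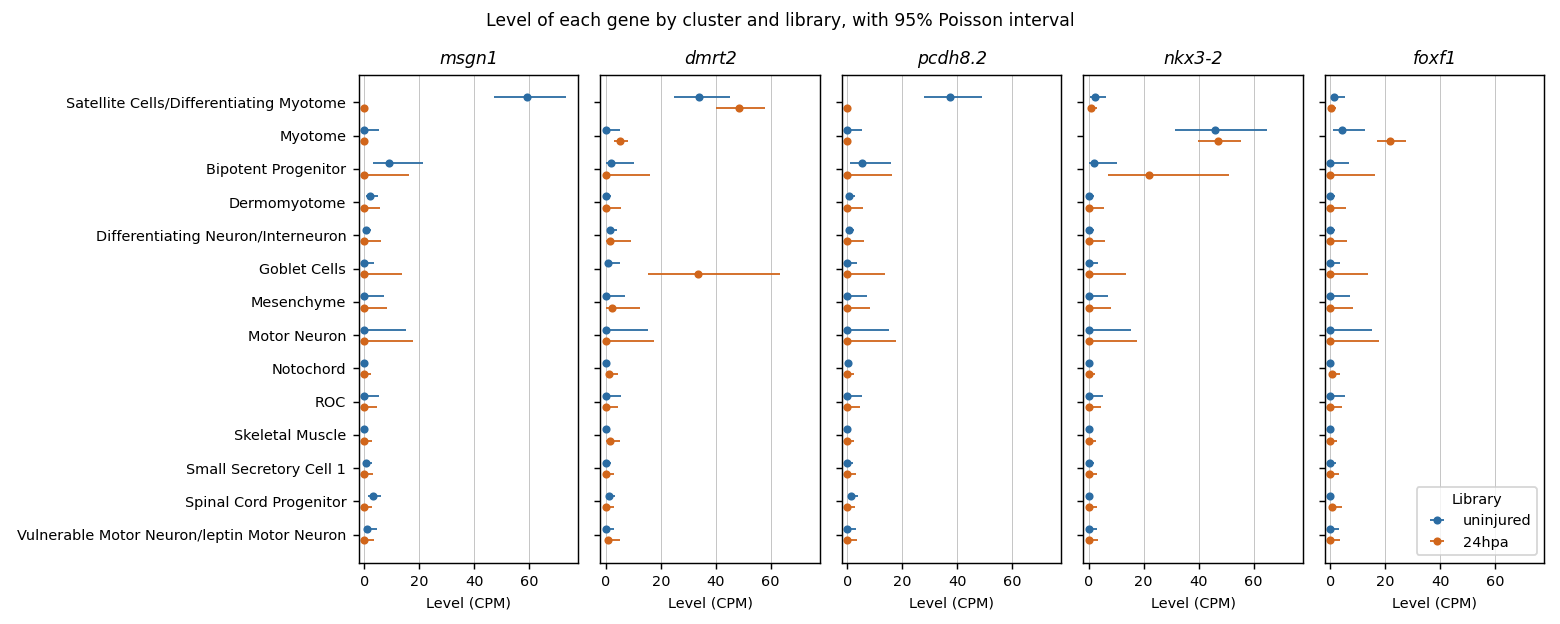
Level of each gene in CPM (x axis) in the 14 clusters with at least 20 cells in each library (y axis), in the uninjured library (blue) and at 24hpa (orange), with bars for the exact 95% Poisson interval. msgn1 and pcdh8.2 stand out only in uninjured Satellite cells, at 59.2 and 37.5 CPM, while dmrt2 in Satellite and nkx3-2 in Myotome stand out in both libraries.

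The names Myotome and Dermomyotome were checked against marker genes. The name Satellite Cells/Differentiating Myotome was not judged in this way and is used only as the authors' label. The cluster named Myotome was low in contractile genes: 8 measured skeletal muscle markers summed to 2058 CPM uninjured and 630 CPM at 24hpa, against 44496 and 82140 CPM in Skeletal Muscle and 103009 and 172485 CPM in the cluster named Dermomyotome. Its 3 measured myogenic factors summed to 28.8 and 11.9 CPM, where Satellite had 686 and 272 CPM. Cartilage and sclerotome genes were found instead, although not in this cluster alone. col2a1, the collagen of cartilage and notochord, reached 3154 CPM uninjured and 7355 CPM at 24hpa in the cluster named Myotome. twist1, a mesenchymal basic helix-loop-helix factor, reached 1085 and 838 CPM. In Bipotent Progenitor col2a1 was 3431 and 2380 CPM. In Mesenchyme twist1 was 1792 and 1201 CPM, and pax9 was 203 and 75.3 CPM against 173 and 33.1 CPM in Myotome. A list of 6 notochord markers, which shares col2a1, summed to 3723 and 9686 CPM in the cluster named Myotome, most of it col2a1 and col9a1. The notochord signal shh was at 0 UMIs in this cluster in both libraries. The part of notochord cells in these values was not tested. The data therefore go against the name of this cluster, and Myotome is used below only as the authors' label. The cluster named Dermomyotome was above Skeletal Muscle in the contractile genes. The dermomyotome gene meox2 was 5.89 and 3.03 CPM in it, against 134 and 42.1 CPM in Satellite, and lbx1 had 0 UMIs in both clusters. Dermomyotome is therefore also used only as the authors' label. In the cluster of that name, msgn1 had 4 UMIs and pcdh8.2 1 UMI, all uninjured, and dmrt2, nkx3-2 and foxf1 had 0 UMIs in either library. Skeletal Muscle held 0 cells with a member among 412 uninjured cells and 2 among 59 at 24hpa, and Mesenchyme 0 among 48 and 1 among 32, all with dmrt2.

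msgn1 marked a small set of uninjured Satellite cells. Its level was 59.2 CPM (47.1 to 73.4) in the 141 uninjured Satellite cells, with 82 UMIs in 17 cells, and 0 UMIs were found in the 105 Satellite cells at 24hpa. Per cell, 13 of the 17 cells carried more than 2 UMIs, with a median of 5 and a maximum of 10. The share of cells with a UMI was 12.1% (7.18 to 18.6%) in uninjured Satellite cells, against 0.640% (0.208 to 1.49%) of uninjured neural cells, which were taken as background. Median depth was 9345 UMIs in the former and 7349 in the latter. Barcodes with at most 50 UMIs, taken as free RNA, held 4 UMIs of msgn1, or 4.90 CPM, in the uninjured library. The genes highest in free RNA allowed it at most 3.07% of all UMIs in uninjured Satellite cells, 3.37% in Spinal Cord Progenitor, 2.63% in Dermomyotome and 16.6% in Bipotent Progenitor. Outside Satellite, msgn1 was 9.12 CPM (2.96 to 21.3, 5 UMIs in 4 of 87 cells) in uninjured Bipotent Progenitor. It was 3.01 CPM (1.30 to 5.92, 8 UMIs in 3 of 297 cells) in uninjured Spinal Cord Progenitor. In uninjured Dermomyotome it was 1.96 CPM (0.535 to 5.03, 4 UMIs in 4 of 143 cells). Whether these cells express msgn1 was not tested.

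msgn1 was not detected at 24hpa outside the called cells either. All barcodes of the uninjured library together held 138 UMIs of msgn1, and all barcodes of the 24hpa library held 0. The 24hpa Satellite cells were deeper, with a median of 23549 UMIs per cell and 2493252 UMIs in all. With 3 UMIs set in place of 0 over the group, msgn1 was 49.2-fold lower at 24hpa in Satellite. Over all cells it was 20.7-fold lower. These are log2 ratios of -5.62 and -4.37, and they leave out the counting error of the uninjured library. The exact intervals, which include it, ended at -5.29 and -4.05. A UMI in 0 of 105 Satellite cells at 24hpa allows a share of cells with a UMI of up to 2.86% by a limit of 3 counts, and of up to 3.45% by the exact interval. A cell without a UMI may still express the gene.

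pcdh8.2 followed the same pattern across clusters and libraries. Uninjured Satellite cells held 52 UMIs in 18 cells, or 37.5 CPM (28.0 to 49.2), and Satellite cells at 24hpa held 0. The share of cells with a UMI was 12.8% (7.74 to 19.4%), against 0.512% (0.140 to 1.31%) of uninjured neural cells. Of the 18 cells, 10 had more than 2 UMIs and the highest had 7. Over all barcodes pcdh8.2 had 88 UMIs uninjured and 0 at 24hpa. With 3 UMIs in place of 0 it was 31.2-fold lower at 24hpa in Satellite and 12.6-fold lower over all cells. The exact intervals ended at log2 ratios of -4.61 and -3.32. Free RNA of the uninjured library held 3 UMIs, or 3.67 CPM, and outside Satellite the highest level was 5.47 CPM in Bipotent Progenitor, from 3 UMIs in 1 cell.

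The sister gene pcdh8, which neighbours pcdh8.2 in the RefSeq annotation, had 1 UMI over all cells against 62 UMIs of pcdh8.2. Whether reads of these related genes were split in the authors' counting was not tested.

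dmrt2 differed from both in that it was present in Satellite cells of either library. It reached 33.9 CPM (24.9 to 45.1) in uninjured Satellite cells, from 47 UMIs in 29 of 141 cells, and 48.5 CPM (40.3 to 58.0) at 24hpa, from 121 UMIs in 52 of 105 cells. The 2 intervals overlapped. The log2 ratio of 24hpa over uninjured was 0.52 with an exact conditional interval of 0.02 to 1.04. The share of positive cells was 20.6% (14.2 to 28.2%) uninjured and 49.5% (39.6 to 59.5%) at 24hpa, at median depths of 9345 and 23549 UMIs. After every cell was thinned to 2600 UMIs, which left out 0 cells, the shares came to 7.36% and 12.4%. Neural cells gave 0.768% uninjured and 0.676% at 24hpa before thinning. Most positive uninjured cells (20 of 29) carried a single dmrt2 UMI, whereas of the 52 at 24hpa 11 carried 2 and 22 carried more, in deeper cells. Free RNA held 0 UMIs of dmrt2 in both libraries.

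Outside Satellite, dmrt2 was found at 24hpa in the cluster named Myotome, with 16 UMIs in 11 of 184 cells, or 4.99 CPM (2.85 to 8.11), and with 0 UMIs in the 81 uninjured cells, which allows up to 4.32 CPM. The 24hpa interval reached below that limit, so a difference in this cluster was not detectable at this depth. In Goblet Cells at 24hpa dmrt2 was 33.5 CPM, but its 9 UMIs came from only 2 of 21 cells. It was 0.928 CPM in uninjured Goblet Cells, from 1 UMI, and the log2 ratio was 5.17 (2.32 to 10.6). Over all cells dmrt2 was 2.12 CPM uninjured and 9.51 CPM at 24hpa.

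nkx3-2 had its level in the cluster named Myotome, where its levels in both libraries were close. It stood at 46.1 CPM (31.5 to 65.1) in the 81 uninjured cells, from 32 UMIs in 8 cells, and at 47.1 CPM (39.9 to 55.3) in the 184 cells at 24hpa, from 151 UMIs in 53 cells. The log2 ratio was 0.03, with an interval of -0.53 to 0.63. In the uninjured library 28.1% of these UMIs came from 1 cell. The share of positive cells was 9.88% (4.36 to 18.5%) uninjured and 28.8% (22.4 to 35.9%) at 24hpa, at median depths of 8432 and 17295.5 UMIs. Thinned to 2600 UMIs, the shares were 7.21% and 12.3%. Not a single nkx3-2 UMI was found in the 781 uninjured and 296 24hpa neural cells. Over all cells the gene was 1.36 CPM uninjured and 9.82 CPM at 24hpa. Of the sorted cells, 3.10% uninjured and 16.9% at 24hpa were in the cluster named Myotome. In Bipotent Progenitor, nkx3-2 had 1 UMI uninjured, or 1.82 CPM, and 5 UMIs in 4 of 36 cells at 24hpa, or 21.9 CPM. The log2 ratio there was 3.58 (0.42 to 9.15).

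foxf1 was found in the same cluster and nearly all at 24hpa. It had 3 UMIs in 2 of 81 uninjured cells, or 4.32 CPM (0.891 to 12.6), and 70 UMIs in 31 of 184 cells at 24hpa, or 21.8 CPM (17.0 to 27.6). These intervals did not overlap, and the log2 ratio was 2.34 with a wide interval of 0.73 to 4.65 because the uninjured count was 3. The shares of positive cells were 2.47% (0.3004 to 8.64%) and 16.8% (11.7 to 23.1%), and 0.830% and 6.17% after thinning. Neural cells held 0 UMIs uninjured and 1 UMI at 24hpa. foxf1 had 2 UMIs in uninjured Satellite cells and 1 in those at 24hpa. Free RNA held 2 UMIs of each of nkx3-2 and foxf1 at 24hpa, or 4.87 CPM, and 0 UMIs uninjured.

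**Figure D2:**
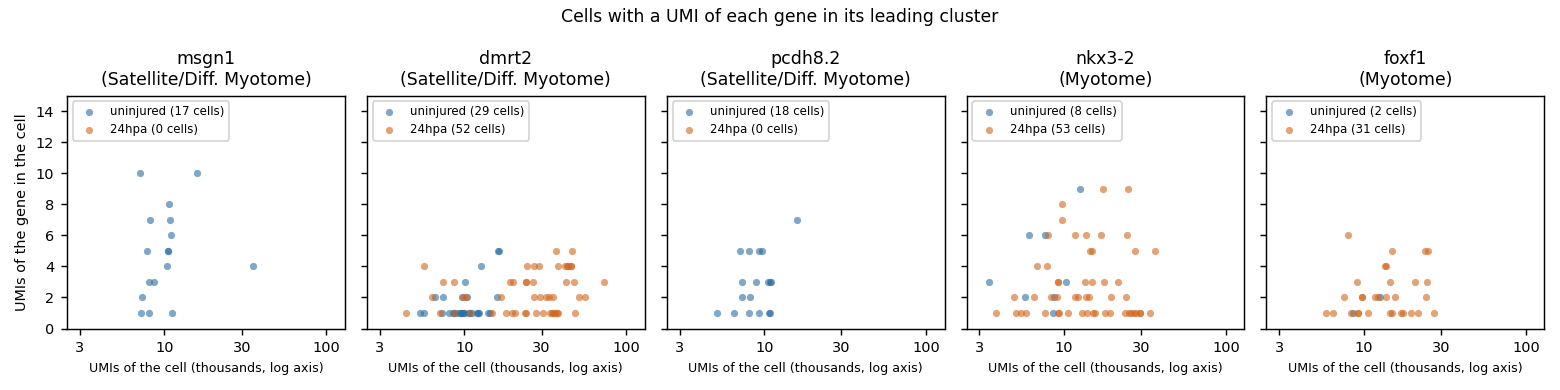
UMIs of each gene (y axis) against all UMIs of the cell (x axis, log scale) for the cells of the leading cluster with at least 1 UMI of the gene, in the uninjured library (blue) and at 24hpa (orange). msgn1 reached 10 UMIs in cells of ordinary depth, whereas the dmrt2 cells at 24hpa were mostly deeper than the uninjured ones.

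The contrast between libraries over all cells set the genes apart in 2 directions. With a 2-fold limit and at least 20 UMIs, dmrt2, nkx3-2 and foxf1 were past the limit with more at 24hpa, and 7.81% of 11202 genes were. msgn1 and pcdh8.2 were past it with less at 24hpa, and 10.7% of genes were. Log2 ratios were 2.16 (1.71 to 2.63) for dmrt2, 2.85 (2.32 to 3.41) for nkx3-2 and 4.58 (3.29 to 6.25) for foxf1. When clusters were weighted to their uninjured shares, these ratios came to 1.28, 0.47 and 2.02. The 1.28 of dmrt2 rests in part on Goblet Cells, at 33.5 CPM at 24hpa from 9 UMIs in 2 cells. Their uninjured share is above their 1.93% of cells at 24hpa. Within Satellite the log2 ratio of dmrt2 was 0.52. The 0.47 of nkx3-2 likewise takes in Bipotent Progenitor, with 5 UMIs at 24hpa. Weighted ratios without these clusters were not computed. Within Satellite, msgn1 and pcdh8.2 were past the limit, where 18.7% of 6851 genes were at least 2-fold lower and 7.12% at least 2-fold higher. Within the cluster named Myotome only foxf1 of the 2 members with enough UMIs was past it, where 11.0% of 6983 genes were higher and 11.0% lower. Since the members were chosen with this contrast known, these counts are read as description. TMM factors moved the median log2 ratio of all genes by 0.32 in Satellite and by 0.19 in Myotome. With them the share of higher genes among those past 2-fold came to 52.0% in Satellite, against 27.5% with totals, and to 65.0% against 49.97% in Myotome. With TMM factors the log2 ratio of dmrt2 in Satellite was 0.84 (0.34 to 1.36), and those of nkx3-2 and foxf1 in Myotome were 0.23 and 2.53.

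The other genes of presomitic mesoderm and somite segmentation were examined next. Of 37 listed genes 21 were in the files, and 12 had at least 20 UMIs in Satellite. All 12 were at least 2-fold lower at 24hpa, where 18.7% of 6851 genes were. This list and those below were chosen with earlier results of these data known, so their counts are a description. Genes at 0 or 1 UMI at 24hpa reached 20 UMIs only through the uninjured library, so their direction was set by that filter. Their median log2 ratio was -4.12 (genes at 0 UMIs entered at their bound), against a median of -0.23 over all genes tested there. t (brachyury, a T-box factor of posterior mesoderm) had 103 UMIs uninjured and 0 at 24hpa. mespa (29 UMIs), ripply2.1 (34 UMIs) and ripply2.2 (89 UMIs, listed as LOC100487498), which set the segment border, and the caudal genes cdx2 (29 UMIs) and cdx4 (25 UMIs) also had 0 UMIs at 24hpa. The Notch ligands dll1 and dlc had 25 and 31 UMIs uninjured and 1 UMI each at 24hpa. lfng, a modifier of Notch, was 77.9 CPM uninjured and 10.8 CPM at 24hpa. At 24hpa these genes were, like msgn1 and pcdh8.2, at 0 or 1 UMI in Satellite cells except for lfng, foxc1, foxc2 and meox2, while dmrt2 had 121 UMIs.

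Muscle and sclerotome lists also stood lower in 24hpa Satellite cells, by less. Of the dermomyotome and myogenic list, 10 of 17 genes were in the files and 5 had enough UMIs. All 5 were at least 2-fold lower, where 18.7% of 6851 genes were, with a median of -1.67. meox2, myf5, myog and myf6 were among them. With TMM factors 3 of the 5 were at least 2-fold lower. myf5, a muscle determination factor, was 645 CPM uninjured and 266 CPM at 24hpa. Of the sclerotome list, 11 of 19 genes were in the files, and 7 of the 8 with enough UMIs were at least 2-fold lower. The exception was twist1, at 406 and 286 CPM. The median log2 ratio of the sclerotome list was -2.08. Of the lateral mesoderm and fin mesenchyme list 3 genes had enough UMIs, none was past 2-fold, and the median was -0.76. Some genes are in 2 of the lists (meox2, foxc1, foxc2 and twist1), so the counts are not independent. Beside these medians, the log2 ratio of dmrt2 in Satellite was 0.52.

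In the cluster named Myotome, where 11.0% of 6983 genes were at least 2-fold higher and 11.0% lower, 7 sclerotome genes had enough UMIs. Of these, 2 were at least 2-fold higher at 24hpa, among them col2a1, at 3154 CPM uninjured and 7355 CPM at 24hpa. pax9, a paired-box factor of sclerotome, was at least 2-fold lower, at 173 and 33.1 CPM. foxc1, foxc2, sox9 and twist1 lay within 2-fold. Of the lateral mesoderm and fin mesenchyme list 15 of 19 genes were in the files and 6 had enough UMIs. prrx1, bmp4 and bmp2 were at least 2-fold lower and none was higher. foxf2, the paralog of foxf1, had 5 UMIs uninjured and 31 at 24hpa, or 7.20 and 9.68 CPM, a log2 ratio of 0.43 with an interval of -0.95 to 2.15. The 5 other dmrt genes had at most 5 UMIs each over all cells.

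**Figure D3:**
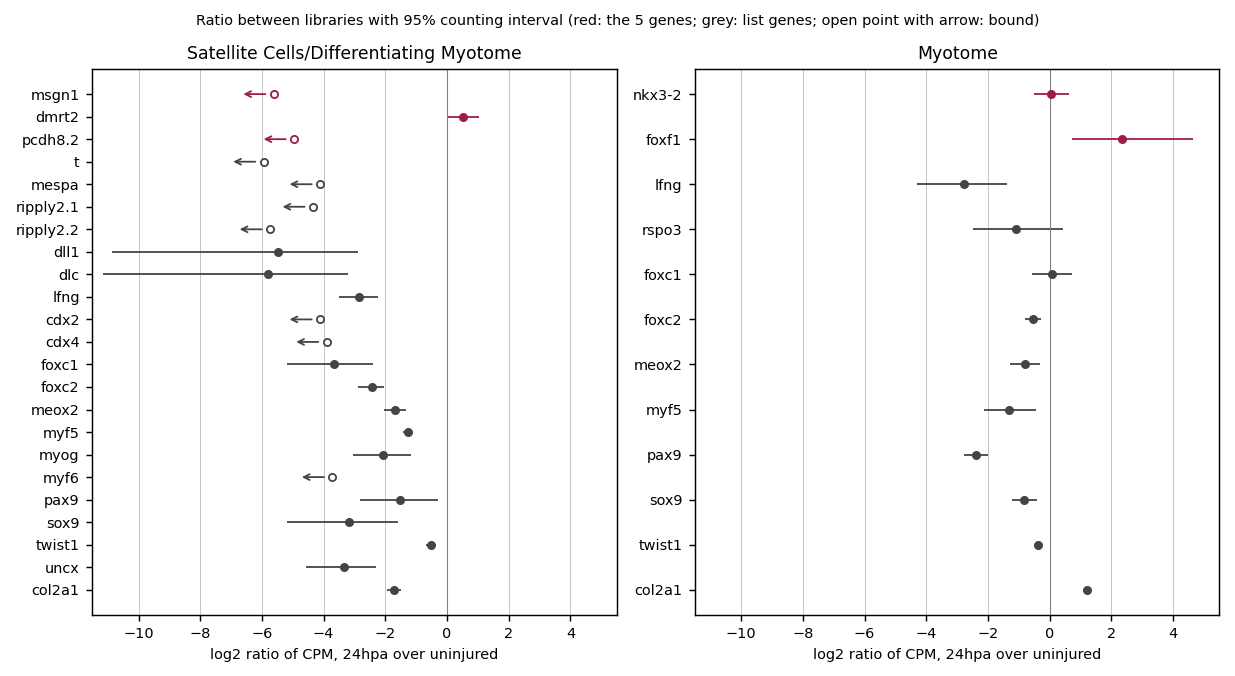
Log2 ratio of CPM, 24hpa over uninjured (x axis), of the members (red) and of listed presomitic, myogenic and sclerotome genes (grey, not all list genes shown) with at least 20 UMIs in Satellite (left) and Myotome (right), with exact 95% counting intervals. Open points with arrows are bounds for genes at 0 UMIs at 24hpa. In Satellite dmrt2 is the only point above 0, at 0.52, and in Myotome foxf1 has the highest ratio, at 2.34.

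Co-detection showed 2 groupings of the members. In uninjured Satellite cells, 10 cells carried both msgn1 and pcdh8.2. pcdh8.2 was found in 58.8% (32.9 to 81.6%) of the 17 cells with msgn1 and in 6.45% (2.83 to 12.3%) of the 124 cells without it. After thinning to 2600 UMIs these shares were 36.7% and 4.66%. The depth of the cells was similar, with medians of 10396 UMIs with msgn1 and 9319.5 without.

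dmrt2 was found at like shares in cells with and without msgn1. It was detected in 23.5% (6.81 to 49.9%) of cells with msgn1 and in 20.2% (13.5 to 28.3%) of cells without it, and likewise in 22.2% of cells with pcdh8.2 and 20.3% without. The intervals are wide, and a preference in either direction was not detectable with 17 and 18 cells.

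In the cluster named Myotome at 24hpa, 28 cells carried both nkx3-2 and foxf1. nkx3-2 was found in 28 of the 31 cells with foxf1, or 90.3% (74.2 to 98.0%), and in 16.3% (10.9 to 23.2%) of the 153 cells without it. Thinned, the shares were 49.99% and 9.80%. In the other direction, foxf1 was found in 52.8% (38.6 to 66.7%) of cells with nkx3-2 and in 2.29% (0.475 to 6.55%) of those without. The cells with nkx3-2 were shallower than those without, at medians of 13943 and 18173 UMIs. Both uninjured cells with foxf1 also carried nkx3-2. Of the 11 cells with dmrt2, 1 carried nkx3-2 (9.09%, 0.230 to 41.3%) and 0 carried foxf1 (up to 28.5%). These intervals held the shares in cells without dmrt2, 30.1% and 17.9%, so a difference was not detectable with 11 cells.

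Among uninjured Satellite cells only 3 carried nkx3-2 and 1 carried foxf1, too few to compare their co-detection with msgn1 or pcdh8.2. Over all cells, 71 uninjured cells carried 1 member, 16 carried 2 and 2 carried 3. At 24hpa 107 carried 1 member, 29 carried 2 and 0 carried 3.

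**Figure D4:**
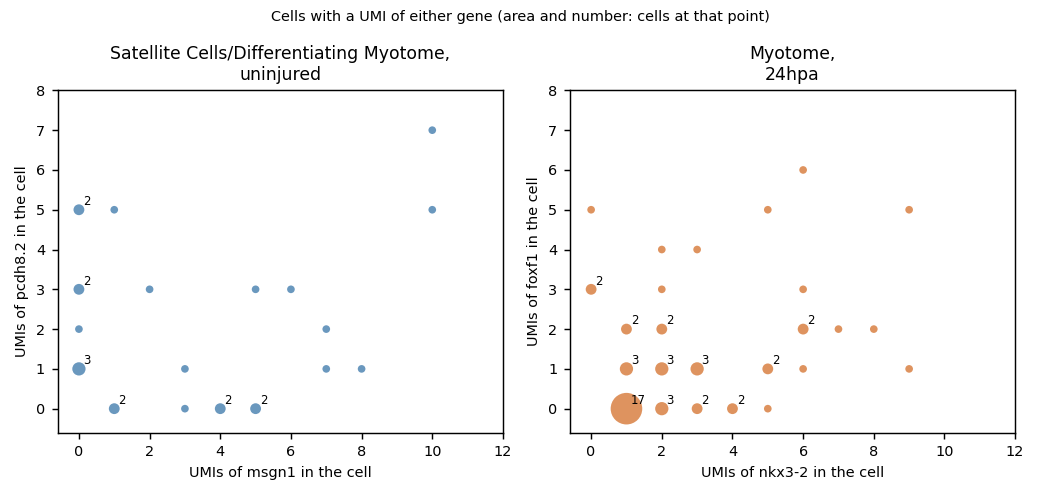
UMIs of pcdh8.2 against UMIs of msgn1 in uninjured Satellite cells (left), and of foxf1 against nkx3-2 in Myotome cells at 24hpa (right), for cells with a UMI of either gene. The area of a point gives the cells at that position, with their number beside it where over 1. Of the cells shown, 10 on the left and 28 on the right carry both genes, and the 2 cells with 10 UMIs of msgn1 carry pcdh8.2 as well.

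Listed genes were then compared between cells with and without a member, within 1 cluster and 1 library. Cells were divided by the member's own UMIs and cells of 1 library are not replicates, so these values carry counting intervals and no test. In uninjured Satellite cells, 7 of the 12 presomitic and segmentation genes with at least 20 UMIs were at least 2-fold higher in the 17 cells with msgn1, where 8.41% of 5017 genes were. t was 366 CPM (285 to 463) in cells with msgn1 and 28.4 CPM (19.7 to 39.7) in cells without. dlc was 101 and 10.0 CPM, dll1 63.7 and 10.9 CPM, cdx2 74.3 and 12.5 CPM, and cdx4 69.0 and 10.0 CPM. ripply2.1 and ripply2.2 differed by less than their intervals, with log2 ratios of 0.13 (-1.59 to 1.52) and 0.59 (-0.27 to 1.36). Division by pcdh8.2 gave another order, with 9 of these 12 genes at least 2-fold higher and lfng at least 2-fold lower. The share over all genes was not computed for this division, so these counts have no scale and are not read as a result. ripply2.2 was 499 CPM with pcdh8.2 and 5.73 CPM without, ripply2.1 158 and 6.55 CPM, and mespa 164 and 1.64 CPM. dll1 and cdx4 were within 2-fold, with log2 ratios of 0.02 (-2.37 to 1.75) and -0.63 (-3.76 to 1.39). The divisions by msgn1 and pcdh8.2 share 10 cells and are not independent.

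lfng and 2 of the 5 dermomyotome and myogenic genes were at least 2-fold lower with msgn1, where 13.6% of genes were. lfng was 31.8 CPM with msgn1 and 85.2 CPM without. myf5 was 191 CPM (134 to 264) and 717 CPM (669 to 766). prrx1, a factor of limb and fin mesenchyme, was 5.31 CPM with msgn1, from 1 UMI, and 55.1 CPM without, from 66. uncx, a homeodomain factor of posterior sclerotome, was 5.31 CPM with msgn1, from 1 UMI, and 41.8 CPM without, from 50. Their log2 ratios had wide intervals, at -3.38 (-8.70 to -0.85) and -2.98 (-8.31 to -0.43). Cells with msgn1 were therefore high in t and posterior genes and low in myf5 within the same cluster.

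Between cells with and without dmrt2 few listed genes were past 2-fold, and few of all genes were. In uninjured Satellite cells 1 of 12 presomitic and segmentation genes, cdx4, was at least 2-fold lower with dmrt2, and none was higher, where 3.67% of genes were higher and 5.96% lower. Of the 5 dermomyotome and myogenic genes none was past 2-fold, and of the 7 sclerotome genes 1 was, with more in the 29 cells with dmrt2 than in the 112 without. myf5 was 541 CPM (461 to 630) with dmrt2 and 674 CPM (626 to 725) without. At 24hpa none of the listed genes with at least 20 UMIs was past 2-fold between the 52 cells with dmrt2 and the 53 without, where 2.63% of genes were higher and 2.58% lower. myf5 was 269 CPM in cells with dmrt2 and 261 CPM in cells without. Most uninjured cells with dmrt2 (20 of 29) had 1 UMI of it. At 24hpa the cells with dmrt2 were deeper, at medians of 28314 UMIs and 18640 without. The part of detection in these divisions was not tested, so the low counts are not read as a result about dmrt2.

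In the cluster named Myotome at 24hpa, 4 of 7 sclerotome genes were at least 2-fold higher in the 53 cells with nkx3-2, where 4.45% of 6563 genes were. sox9, the factor of cartilage formation, was 155 CPM (129 to 184) with nkx3-2 and 23.1 CPM (17.4 to 30.1) without. col2a1 was 13051 and 5373 CPM, and twist1 1371 and 652 CPM. foxf2 was 27.8 CPM with nkx3-2 and 3.37 CPM without. pax9 was within 2-fold, at 20.6 and 37.4 CPM.

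All 3 dermomyotome and myogenic genes with enough UMIs were at least 2-fold lower in these cells, where 7.27% of genes were. The lateral mesoderm and fin mesenchyme list went both ways, with foxf2 and twist1 at least 2-fold higher and prrx1, bmp4 and bmp2 at least 2-fold lower, of 6 genes. bmp4 was 12.1 CPM (5.80 to 22.2) with nkx3-2 and 118 CPM (104 to 132) without. prrx1 was 1.21 and 36.6 CPM, and meox2 16.9 and 51.7 CPM. Cells with foxf1 gave the same order for sox9, at 203 CPM with and 33.1 CPM without, and for foxf2, at 48.6 and 3.27 CPM, while pax9, at 11.1 and 36.7 CPM, was at least 2-fold lower with foxf1. These 2 divisions share 28 cells and are not independent.

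**Figure D5:**
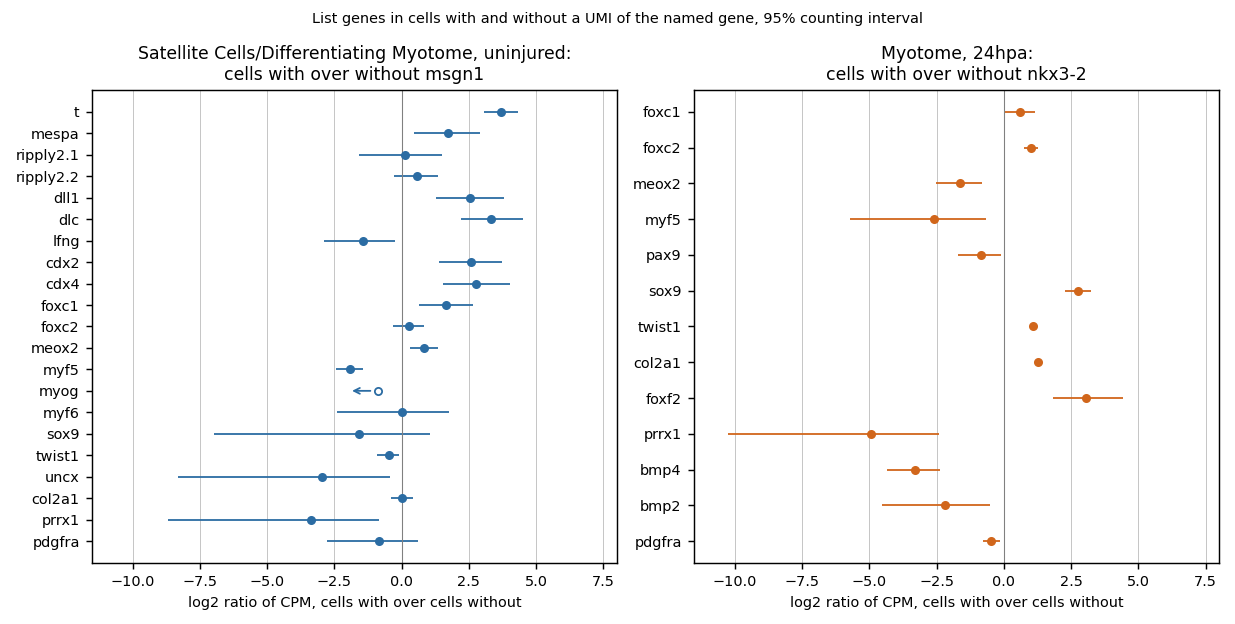
Log2 ratio of CPM (x axis) of listed genes with at least 20 UMIs, not all of them shown, between cells with and without msgn1 in uninjured Satellite cells (left), and with and without nkx3-2 in Myotome cells at 24hpa (right), with exact 95% counting intervals. Open points with arrows are bounds. Among the genes drawn, t and dlc have the highest ratios on the left, and foxf2 and sox9 those on the right.

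The cell cycle phases that the authors called were set beside the members. Among uninjured Satellite cells, 2 of 17 cells with msgn1 and 21 of 124 without were called G1. In Myotome at 24hpa, G1 was called in 37.7% (24.8 to 52.1%) of cells with nkx3-2 and in 19.8% (13.4 to 27.7%) of cells without, and the intervals overlapped. For foxf1 the shares were 41.9% (24.5 to 60.9%) and 21.6% (15.3 to 28.9%). The cells with either gene were the shallower ones, and the part of depth in these calls was not tested.

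Finally, the genes most alike to each member were ranked by Pearson correlation of log2(CPM + 10) over groups of cluster and library with at least 20 cells, which gave 31 groups, among 10318 genes. The groups come from 2 libraries and their depth, and the members were selected on this same pattern, so r is a description. msgn1 and pcdh8.2 stood out in only 1 group, uninjured Satellite cells, so a high r with either rests mainly on that group. msgn1 and pcdh8.2 were each other's nearest gene, with r of 0.995, followed for both by ripply2.2, with 0.992 and 0.994. ripply2.1 and mespa were among the 5 nearest of each. dmrt2 had no close match, its highest r being 0.657. nkx3-2 stood out mainly in the 2 Myotome groups and foxf1 mainly in Myotome at 24hpa, so r with either rests mainly on those groups. For nkx3-2 the highest were agtr1, an angiotensin receptor, at 0.898, and figf, a growth factor of the VEGF family, at 0.894. In Myotome agtr1 was 43.2 CPM uninjured and 7.80 CPM at 24hpa, and figf 17.3 and 53.4 CPM, where nkx3-2 was 46.1 and 47.1 CPM. For foxf1 they were LOC100487324 at 0.930 and hhip, a Hedgehog-binding protein, at 0.800, with nkx3-2 at 0.781 among the 5 nearest. hhip itself was 11.5 CPM uninjured and 141 CPM at 24hpa in the cluster named Myotome.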

How the data were processed

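The authors ran Cell Ranger and deposited its raw UMI counts, with all 737280 barcodes listed per library. The submitters' processing notes name the build GRCz11, a zebrafish assembly, while the identifiers are of Xenopus tropicalis, so no coordinates are given. Gene names were taken from the deposited gene table, and RefSeq's table was used for neighbours and for 2 list genes matched by gene ID. The authors' table of all cells, made with Seurat after integration, gave cells (over 500 genes), clusters, classes, phases and UMI counts per cell, and 11 of its columns were not used. Authors' cluster names were kept.

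UMIs were summed per cluster and library. Ratios used exact conditional 95% intervals, and where 1 library had 0 UMIs, 3 were set in its place and the ratio is a bound. Such a bound leaves out the counting error of the other library. A 2-fold limit with at least 20 UMIs gave the background over all genes. Thinned shares are expectations at 2600 or 5000 UMIs. With 1 library per group no p-value was computed. Doublets were looked for with Scrublet in scanpy 1.11.5, which marked 10 uninjured and 2 24hpa cells, none of them in the Satellite or Myotome clusters. With 0.382% and 0.183% of cells marked the caller may not have worked, so doublets among cells with 2 members were not tested. TMM factors came from edgeR 4.0.16. Scripts ran in Python 3.11.15 with SciPy 1.17.1 and were tested on simulated data. Members and gene lists were chosen with earlier results of these data known, and named genes are the members, genes of the lists, paralogs and the 5 nearest genes by correlation. No sequence is shown. Values of some list genes and of a paralog are not reported here, although counts over the lists include those genes. Library totals were 48622597 UMIs uninjured and 32798976 at 24hpa.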

Additional observations from a re-analysis of the deposited data

Results flagged for a closer look

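Barcodes with over 50 UMIs that are absent from the table of cells entered none of the ratios above, and 3 members had more signal there at 24hpa than in the uninjured library. dmrt2 was 3.93 CPM (3.02 to 5.02) at 24hpa and 0.793 CPM uninjured, from 64 and 17 UMIs. nkx3-2 was 4.30 CPM (3.35 to 5.43) and 1.07 CPM, from 70 and 23 UMIs. foxf1 was 1.23 CPM (0.7498 to 1.90) and 0.373 CPM, from 20 and 8 UMIs. In these barcodes msgn1 had 32 UMIs uninjured and 0 at 24hpa, and pcdh8.2 23 and 0. The part of cells that the authors' filter left out was not tested.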

How the results depend on the processing

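No paired analysis was possible because each group has 1 library, and for the same reason no replicate could be left out. The 43 main results were recomputed in 194 alternative values, of which 157 moved by less than the counting interval (or by less than 1.5 times for counts of genes). A reversal was looked for in log2 ratios only, and 0 reversed. Levels, shares and counts could not be called reversed. Of the 157 values, 37 came from leaving out cells under 1000 genes and 29 from leaving out cells marked by Scrublet. Subtracting free RNA moved none of the 8 main results it was run on. Leaving out cells under 1000 genes or cells marked by Scrublet removed 0 Satellite cells and at most 1 Myotome cell, so it says nothing about results within these clusters, and it moved none of those over all cells. Leaving out cells with over 2 times the median UMIs of their cluster, chosen after seeing the data, took the log2 ratio of msgn1 over all cells to -3.96, a bound. Weighting clusters to their uninjured shares took the log2 ratios over all cells to 1.28 for dmrt2, 0.47 for nkx3-2 and 2.02 for foxf1. It could not be given for msgn1 and pcdh8.2, which had 0 UMIs at 24hpa. The weighted value of dmrt2 rests in part on 9 UMIs in Goblet Cells at 24hpa, and that of nkx3-2 on 5 in Bipotent Progenitor.

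Shares of cells moved with depth. At 2600 UMIs they were 7.36% (uninjured) and 12.4% (24hpa) for dmrt2, and 7.27% (uninjured) for pcdh8.2. For nkx3-2 and foxf1 at 24hpa they were 12.3% and 6.17%. At 5000 UMIs they were 14.0% and 21.1% for dmrt2, and at 24hpa 18.5% for nkx3-2 and 10.8% for foxf1. With at least 2 UMIs asked for, they were 6.38% and 31.4% for dmrt2, 16.8% for nkx3-2 and 9.78% for foxf1. The share of msgn1 cells with dmrt2 was 5.001% thinned and 0% with at least 2 UMIs, and that of foxf1 cells with nkx3-2 was 49.99% and 72.2%. As a mean over cells, the 24hpa Myotome level was 66.0 CPM for nkx3-2 and 29.4 CPM for foxf1.

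Counts of genes past 2-fold depended on the minimum. Without one, 1627 genes were higher over all cells, 736 higher and 2802 lower in Satellite, and 3024 lower in Myotome. With at least 50 UMIs, 770 were lower in Satellite, and 497 higher and 449 lower in Myotome. With TMM factors, 872 were higher and 806 lower in Satellite. For the lists, settings chosen after seeing the data gave 5 presomitic and 4 sclerotome genes lower in Satellite and 0 presomitic genes lower in Myotome with at least 50 UMIs, and 3 myogenic genes lower in Satellite and 1 presomitic gene lower in Myotome with TMM factors. The cause of these shifts was not tested.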
